A study of Mus musculus with 4 samples.

Results

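The Jak-Stat and Socs genes followed here were Socs1, Socs2, Socs3, Cish, Stat3, Stat4, Stat5a, Stat5b, Jak1 and Jak3. They were chosen by name, as members of the pathway, with earlier results of these data known, and are 10 of the 31053 genes in the count matrices. Their UMIs (unique molecular identifiers, each standing for 1 captured RNA molecule) were counted in T cells sorted from the meninges and the choroid plexus, the brain's outer membranes and the tissue that secretes cerebrospinal fluid. Young mice were 10 weeks old and aged mice 18 months old, all female C57BL/6 animals without a transgene or treatment named in the labels. Cells of 5 mice were pooled into each of 4 libraries, made with a droplet kit that reads the 5′ end of transcripts, so each combination of age and tissue was 1 sample. No comparison therefore has a replicate, no test or p-value is given, and every interval below covers counting error alone.

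Janus kinases (JAKs) sit on the inner tails of cytokine receptors. When a cytokine binds, they phosphorylate STAT proteins, which pair up, enter the nucleus and switch on target genes. Jak1 serves many receptors, and Jak3 pairs with the common gamma chain shared by the receptors for interleukin-2, interleukin-7 and interleukin-15. Stat5a and Stat5b carry those signals, Stat3 acts below the interleukin-6 family, and Stat4 acts below interleukin-12. Cish and the Socs genes are among the targets and encode proteins that dampen the same receptors, forming a feedback loop. T cells depend on this loop for survival, memory and the choice of an effector fate.

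All 10 genes were protein coding in the GENCODE vM21 annotation of GRCm38. Cish was at chr9:107296026-107302784 on the plus strand, Socs1 at chr16:10782240-10785536, Socs2 at chr10:95385362-95417180 and Socs3 at chr11:117966079-117970047, these 3 on the minus strand. Jak1 was at chr4:101152367-101265282 on the minus strand, Jak3 at chr8:71676296-71690575 and Stat4 at chr1:51987148-52107189, both on the plus strand. The other 3 are neighbours on chromosome 11. Stat5b lay at chr11:100780731-100850724 on the minus strand, Stat5a at chr11:100859351-100885169 on the plus strand and Stat3 at chr11:100885098-100939540 on the minus strand. Stat5a and Stat3 overlapped by their last 72 bases on opposite strands, and Stat5a and Stat5b encode closely related proteins. Cish overlaps Gm17040 and Gm17041 on the other strand, Stat4 overlaps Gm3940, and Jak1 overlaps Raver2 and Gm24468. On their own strand Jak3 overlaps Insl3, Stat4 Gm28177 and Jak1 Gm12785. Whether reads were counted by strand is not given in the sources used here, so reads of overlapping genes may be mixed.

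STAT pairs bind DNA at the letters TTCNNNGAA, which read the same on both strands. RefSeq promoter windows of GRCm38.p6, each 250 bases before to 50 after a start, were in the table for 9 of the 10 genes (12 windows, none for Socs2). The letters occurred in the windows of 2 genes, Cish and Socs3, and in 8.30% of all 32851 windows in the table. Cish had 2 copies, and 0.457% of all windows had 2 or more. The 30 bases around them are shown for each of the 10 genes with a match, with the motif in capitals. The window of Socs1, also an inhibitor, had none.
Cish: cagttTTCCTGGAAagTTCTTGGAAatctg
Socs3: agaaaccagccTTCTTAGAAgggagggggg
The Cish stretch was chr9:107296654-107296683, on the plus strand. It ran from base -5 to base 24 from the RefSeq start and lay in exon 1 of 1 of 5 GENCODE transcripts, outside coding sequence. The Socs3 stretch was chr11:117969502-117969531, read on the minus strand, at bases -165 to -136 from its RefSeq start and in no exon of the 3 GENCODE transcripts. A match is a description of letters and not a measured site.

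The libraries held 1111 (young meninges), 1695 (aged meninges), 718 (young choroid plexus) and 1277 cells (aged choroid plexus). After the study's limits on genes and mitochondrial UMIs, removal of doublets and a requirement for a Cd3d, Cd3e or Cd3g UMI, 1007, 1408, 605 and 1094 T cells remained in that order, with medians of 3198, 2312.5, 2978 and 2838.5 UMIs. A cell with a Cd4 UMI was called CD4, one with a Cd8a or Cd8b1 UMI CD8, and one with none of these neither. The neither cells numbered 481, 735, 269 and 358, and since Cd4 is sparsely captured they may hold cells of both kinds. The study sorted CD4 and CD8 T cells. In the young meninges 71 of 254 CD4 cells had at least 2 Cd4 UMIs, and 222 of 254 CD8 cells at least 2 Cd8 UMIs. Neither cells may thus be CD4 cells more often than CD8 cells, which was not tested, and are not a separate lineage by this rule. Cells with UMIs of both Cd4 and Cd8 genes (16 to 33 per library) were left out. Each library differed from the others in more than age or tissue. Ccr7, a homing receptor of naive and central memory T cells, was detected in 47.5% to 64.6% of the cells of each class in the young libraries and in 8.90% to 11.3% in the aged ones. The share of CD8 cells with a gamma-delta receptor constant gene was 3.94%, 18.9%, 5% and 32.8%. An immediate early and stress list of 12 genes (Fos, Jun, Dusp1, Hspa1a and others) reached 2133 to 5354 CPM in meningeal pools and 258 to 820 CPM in choroid plexus pools. Cd3d was detected in 85.3% to 98.1% of the cells of each class. Fibroblast genes were at or near 0, erythroid genes reached 483 CPM in meningeal pools (13.2 CPM in young and 452 CPM in aged CD8 cells), and choroid plexus epithelial genes stood at 177 CPM in young choroid plexus CD8 cells (in 2.50% of those cells) and at most 9.80 CPM elsewhere. The share of meningeal CD8 cells with a B cell gene was 51.2% when young and 14.6% when aged (206 and 65.2 CPM), and that of choroid plexus CD8 cells 43.8% and 18.2%, while Cd79a was at 0 in all 4 of these pools. In CD4 cells the list stood at 231 and 206 CPM in the young and aged meninges and at 221 and 213 CPM in the choroid plexus. The doublet caller marked 16, 0, 22 and 5 cells, so it did not work in the aged meninges. Between 0 and 3 barcodes were shared by any 2 libraries.

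Levels are given as CPM, the UMIs of a gene summed over a class of a library and scaled to a common total of UMIs that is the same for every pool. Differences are log2 ratios of CPM after adding 10 CPM, which understates the change of low genes, or folds of CPM. A gene was counted as past the cut when the higher pool held at least 20 of its UMIs and the log2 ratio reached 1 in either direction.

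Cish encodes a SOCS-family protein that restrains signalling through STAT5 and the T cell receptor. It was the member with the largest mean difference between the ages. In CD4 cells it stood at 82.4 CPM in the young and 152 CPM in the aged meninges, and at 34.2 CPM in the young and 168 CPM in the aged choroid plexus. In CD8 cells the values were 33.1 and 123 CPM in the meninges and 66.2 and 134 CPM in the choroid plexus. In neither cells they were 48.5 and 161 CPM in the meninges and 43.4 and 134 CPM in the choroid plexus. The 6 aged pools spanned 123 to 168 CPM and the 6 young pools 33.1 to 82.4 CPM. How many of all genes had pools apart in this way was not counted. The fold of aged over young was 1.85 (95% interval 1.39 to 2.47) in meningeal CD4 cells, 3.70 (2.51 to 5.58) in meningeal CD8 cells and 3.32 (2.56 to 4.36) in meningeal neither cells. In the choroid plexus it was 4.90 (2.94 to 8.68) in CD4, 2.02 (1.45 to 2.88) in CD8 and 3.095 (2.12 to 4.63) in neither cells. Its log2 ratio passed the cut in 4 of the 6 comparisons.

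Socs1 encodes an inhibitor that binds JAKs directly and limits interferon and common gamma chain signals. In CD4 cells it stood at 75.6 CPM in the young and 162 CPM in the aged meninges, and at 64.4 and 253 CPM in the young and aged choroid plexus. In CD8 cells it was 63.4 and 125 CPM in the meninges and 126 and 184 CPM in the choroid plexus. In neither cells it was 79.7 and 154 CPM in the meninges and 89.2 and 243 CPM in the choroid plexus. Young choroid plexus CD8 cells, at 126 CPM (100 to 157), were level with aged meningeal CD8 cells, at 125 CPM (103 to 150), so the young and aged pools overlapped there. The folds of aged over young ran from 1.46 (1.14 to 1.89) in choroid plexus CD8 cells, where thinning turned the log2 ratio to -0.19, to 3.94 (2.69 to 5.92) in choroid plexus CD4 cells. Both aged choroid plexus pools of CD4 and neither cells stood above every other pool.

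Socs2, best known for limiting growth hormone signals, is also induced by STAT5 in T cells. In CD4 cells it stood at 24.8 CPM in the young and 65.2 CPM in the aged meninges, and at 12.1 and 72.0 CPM in the young and aged choroid plexus. In CD8 cells the values were 5.68 and 23.2 CPM in the meninges and 12.6 and 29.96 CPM in the choroid plexus, resting on 6 and 8 UMIs in the young pools. In neither cells they were 43.8 and 67.5 CPM in the meninges and 34.7 and 58.1 CPM in the choroid plexus. CD8 cells of each library were below its CD4 cells, apart from the young choroid plexus, where the values were 12.6 and 12.1 CPM. The fold of aged over young was 2.63 (1.60 to 4.47) in meningeal and 5.96 (2.56 to 16.99) in choroid plexus CD4 cells, the latter against 6 UMIs.

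Socs3, an inhibitor of the interleukin-6 receptor chain Il6st and a target of STAT3, differed between the ages by less. It stood at 47.4 and 72.1 CPM in young and aged meningeal CD4 cells and at 30.2 and 58.2 CPM in choroid plexus CD4 cells. CD8 cells had 30.3 and 45.3 CPM in the meninges and 9.46 and 25.9 CPM in the choroid plexus. Neither cells had 47.8 and 72.7 CPM in the meninges and 26.0 and 50.1 CPM in the choroid plexus. The immediate early and stress list was also higher in the aged library in each comparison (3587 and 4938 CPM in meningeal CD4 cells, 457 and 820 CPM in choroid plexus CD4 cells), and its part was not tested. The aged Socs3 value was above the young one in all 6 comparisons, by 0.46 to 0.88 on the log2 scale, but after thinning each cell to 1000 UMIs it was lower in meningeal CD4 (-0.16) and CD8 cells (-0.33). Without thinning, the interval of the fold held 1 in meningeal CD8 cells (0.919 to 2.45). The aged choroid plexus CD8 pool lay below 5 of the 6 young pools, so the ages overlapped across tissues and classes.

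**Figure D1:**
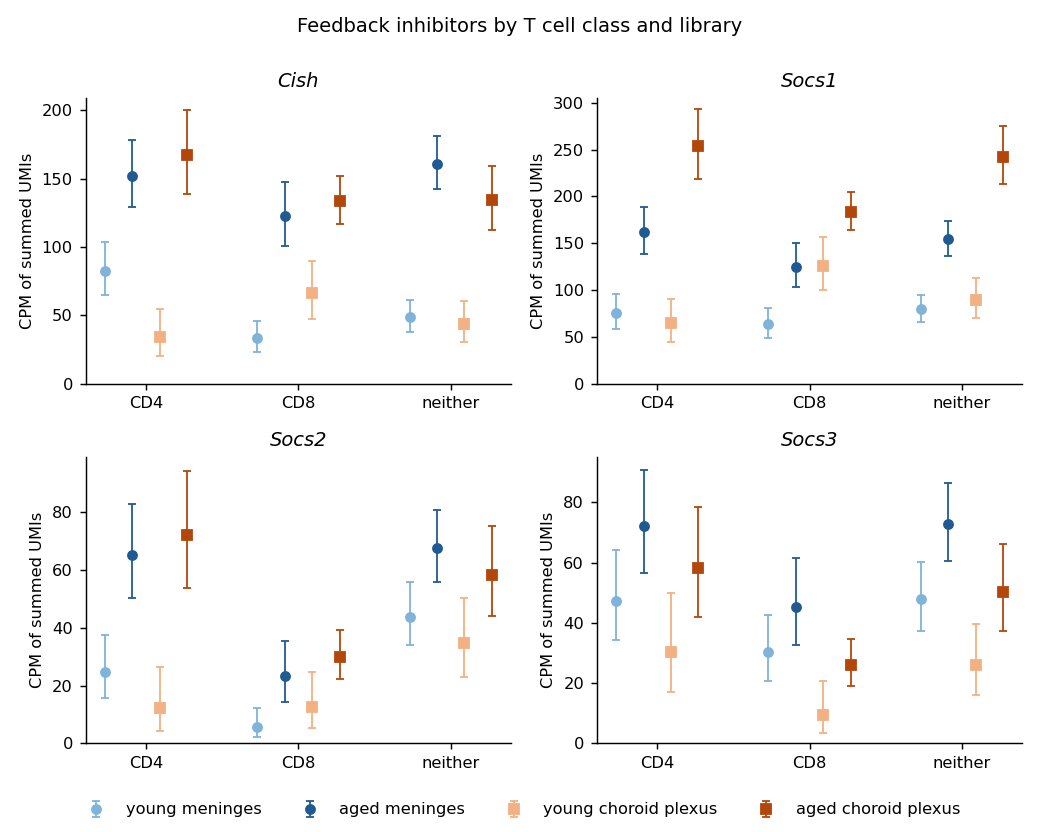
CPM of Cish, Socs1, Socs2 and Socs3 (vertical axes, each on its own scale) in CD4, CD8 and neither T cells of the 4 libraries, with exact Poisson 95% intervals of the counts. Cish spans 123 to 168 CPM in aged pools and 33.1 to 82.4 CPM in young pools. Socs2 spans 5.68 to 29.96 CPM in CD8 cells, below CD4 cells of the same library except in the young choroid plexus (12.6 and 12.1 CPM).

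Set against all genes, the feedback inhibitors made up every member past the cut between the ages. In meningeal CD4 cells these were Socs1 and Socs2, 2 of 10 members, while 6.10% of the 5904 genes tested passed. In meningeal CD8 cells they were Socs2 and Cish, against 5.03% of genes, and in meningeal neither cells Cish alone, against 4.86%. In choroid plexus CD4 cells they were Socs1, Socs2 and Cish, 3 of the 9 members with enough UMIs, against 9.19% of genes. In choroid plexus CD8 cells no member passed, against 3.33%, and in neither cells Socs1 and Cish did, against 6.44%. All 10 of these values were higher in the aged library, the direction in which 4.23%, 3.2%, 3.44%, 7.27%, 2.46% and 4.62% of genes passed in the same order. At a log2 ratio of 0.5 the members past the cut in either direction were 5, 6, 5, 7 (of 9 tested), 5 and 5 in the same order, where 24.9%, 23.6%, 20.7%, 30.2%, 20.3% and 23.9% of genes passed. Of these, Stat5a and Jak3 in meningeal CD8 cells and Jak1 in choroid plexus CD4 cells were lower in the aged library. The median log2 ratio of the members was 0.46, 0.38, 0.21, 0.69 (0.76 over the 9 tested), 0.47 and 0.46, and that of all genes 0.08, 0.04, 0.05, 0.16, 0.12 and 0.13. Socs1, Socs2, Socs3, Cish and Stat4 were higher in the aged library in all 6 comparisons, as were 18.2% of 5971 genes with at least 200 UMIs over the 12 pools. After thinning this no longer held for Socs3 in meningeal CD4 and CD8 cells or for Socs1 in choroid plexus CD8 cells (-0.19). The share of cells with a Ccr7 UMI moved with age in every class, and macrophage genes stood at 193 CPM in the aged against 30.2 CPM in the young choroid plexus CD4 cells, with Adgre1 at 0 in both. Without cells holding a macrophage UMI the total stayed at 10 of 60 values, without those holding a B cell UMI it was 13, and within Ccr7-negative cells it was 6.

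**Figure D2:**
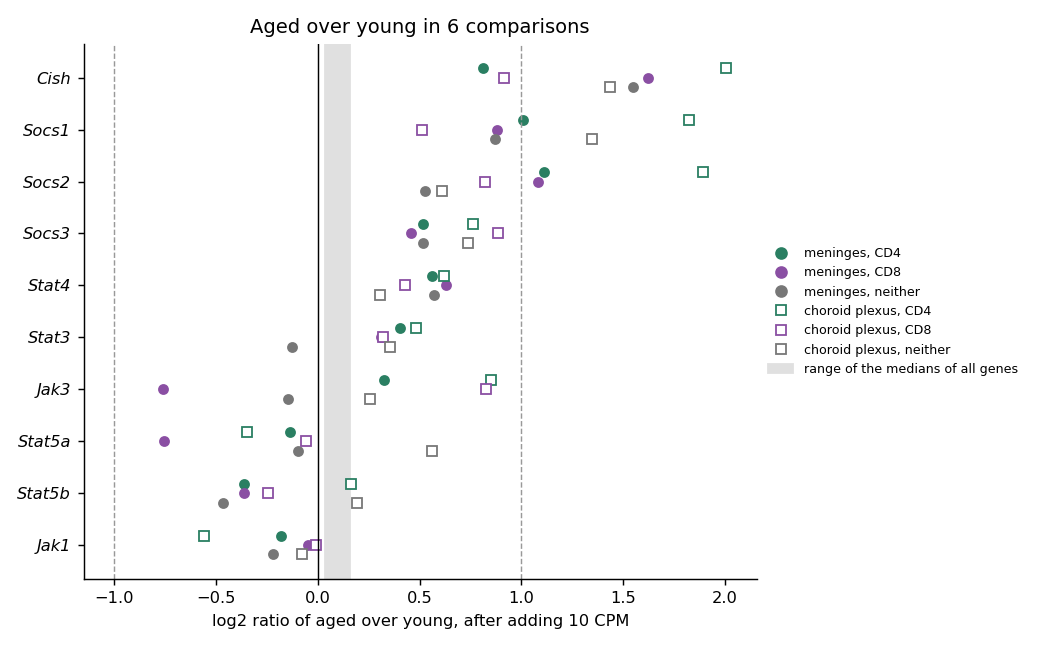
Log2 ratios of aged over young (horizontal axis, after adding 10 CPM) of the 10 genes in CD4, CD8 and neither T cells of the meninges (filled circles) and choroid plexus (open squares), with dashed lines at the cut of 1 and the range of the medians of all genes (0.04 to 0.16) in grey. Cish spans 0.81 to 2.01 and Jak1 -0.56 to -0.01.

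Of the STATs, Stat4 was the one with a higher aged value in all 6 comparisons of whole classes. It stood at 95.9 and 146 CPM in young and aged meningeal CD4 cells, 85.1 and 137 CPM in meningeal CD8 cells and 83.0 and 128 CPM in meningeal neither cells. In the choroid plexus it was 62.4 and 101 CPM in CD4, 93.0 and 128 CPM in CD8 and 79.3 and 100.2 CPM in neither cells. The log2 ratios, 0.30 to 0.63, stayed under the cut, and the interval of the fold held 1 in choroid plexus neither cells (0.914 to 1.76). Stat3 ranged from 52.0 CPM in young choroid plexus CD8 cells to 99.7 CPM in aged choroid plexus CD4 cells. Its log2 ratios of aged over young were -0.13 to 0.48, and all 6 intervals of the fold held 1.

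Stat5a and Stat5b, which carry the signals that induce Cish and Socs2, did not share their pattern. Stat5b was 57.5 and 42.5 CPM in young and aged meningeal CD4 cells, 42.6 and 30.9 CPM in meningeal CD8 cells and 68.4 and 46.8 CPM in meningeal neither cells, lower in the aged library each time. In the choroid plexus it was 42.3 and 48.5 CPM in CD4, 39.4 and 31.7 CPM in CD8 and 40.9 and 48.1 CPM in neither cells. The fold interval left out 1 in meningeal neither cells alone, at 0.684 (0.505 to 0.924). Stat5a rested on 9 to 29 UMIs a pool and ranged from 11.05 to 27.1 CPM. Its aged value was lower in 5 of the 6 comparisons, most in meningeal CD8 cells, where 25.5 CPM in the young library faced 11.05 CPM in the aged one (0.433-fold, 0.187 to 0.922).

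Jak1 kept the narrowest range of the 10 genes, 267 to 399 CPM over the 12 pools. It was 342 and 300.2 CPM in young and aged meningeal CD4 cells, 364 and 352 CPM in meningeal CD8 cells and 349 and 298 CPM in meningeal neither cells. In the choroid plexus it was 399 and 267 CPM in CD4, 344 and 342 CPM in CD8 and 326 and 309 CPM in neither cells. The aged value was lower in all 6 comparisons, as for 8.12% of genes, and the fold was 0.671 (0.547 to 0.822) in choroid plexus CD4 cells. The interval of the fold left out 1 in 2 of the 6. With at least 2 UMIs asked for a class, the aged Jak1 value was higher in 3 of 6. The log2 ratio in choroid plexus CD4 cells was then 0.20, on 62 aged and 33 young cells. After thinning, and without the cell filters, the aged Jak1 value was higher in 2 of 6. Jak3 went opposite ways in the CD8 cells of both tissues. It was 36.9 CPM in young and 17.7 CPM in aged meningeal CD8 cells, a fold of 0.479 (0.25 to 0.877), and 15.8 CPM in young and 35.7 CPM in aged choroid plexus CD8 cells, a fold of 2.27 (1.15 to 4.96). These pools held 10 to 62 Jak3 UMIs. In CD4 cells Jak3 was 32.7 and 43.5 CPM in the meninges and 20.1 and 44.3 CPM in the choroid plexus. With the 12 pools of each gene put in order of level, the Poisson intervals of neighbouring pools were apart at 1 of 11 steps for Socs1, between 243 CPM in aged choroid plexus neither cells and 184 CPM in aged choroid plexus CD8 cells, and at 0 of 11 for each of the other genes.

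**Figure D3:**
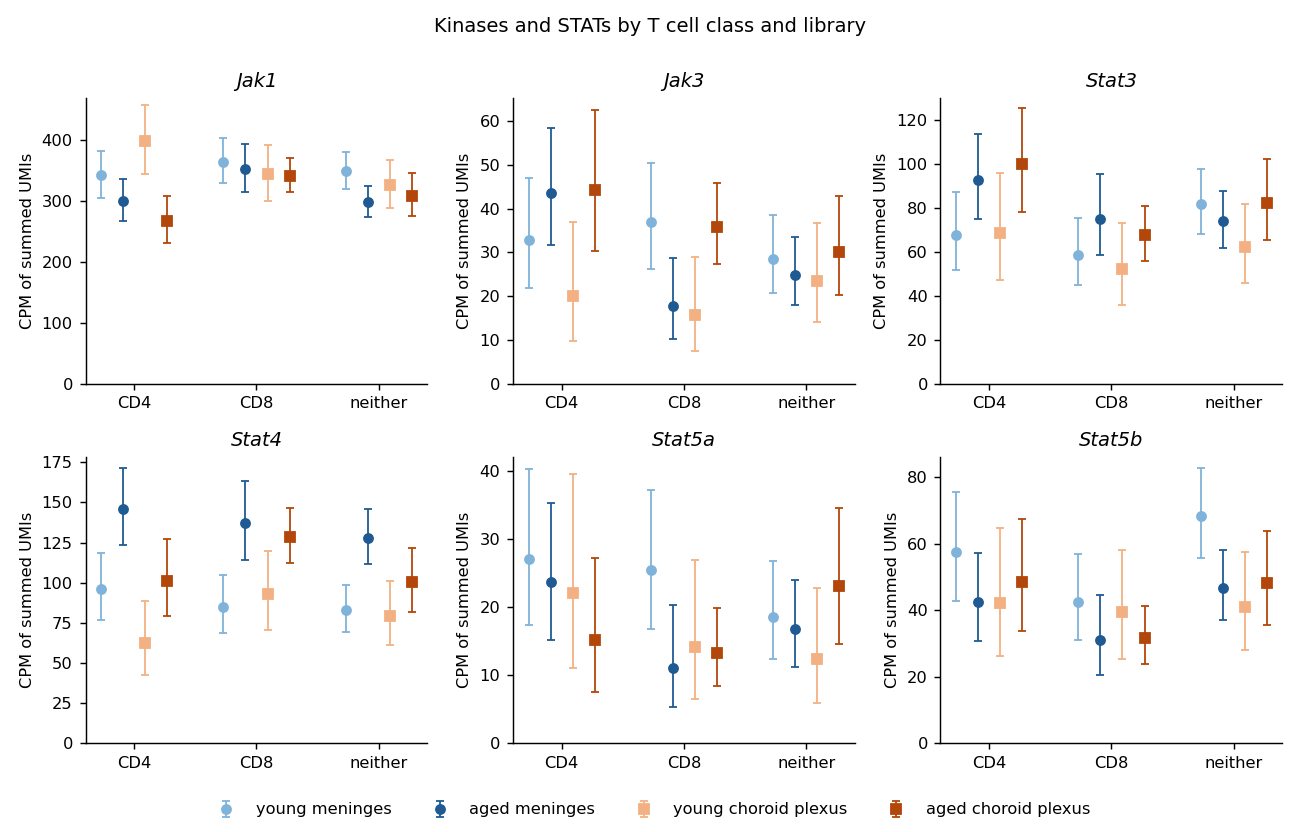
CPM of Jak1, Jak3, Stat3, Stat4, Stat5a and Stat5b (vertical axes, each on its own scale) in CD4, CD8 and neither T cells of the 4 libraries, with exact Poisson 95% intervals of the counts. Jak1 stays between 267 and 399 CPM, and the intervals of most pools of Stat3, Stat5a and Stat5b overlap.

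Between the tissues fewer member values passed the cut than between the ages, and all genes also differed less. Of all genes 1.38% to 3.75% passed between the tissues and 3.33% to 9.19% between the ages. Past the cut were Cish in young CD4 cells, where 3.75% of genes passed, and Socs3 in young CD8 cells, where 2.72% passed, both lower in the choroid plexus. No member passed in young neither cells or in the 3 aged classes, against 2.07%, 2.26%, 1.38% and 1.49% of genes. Cish in young cells turned with the class: its choroid plexus level was 0.415 times the meningeal one (0.23 to 0.711) in CD4 cells and 1.999 times (1.25 to 3.23) in CD8 cells. In aged cells its folds between the tissues were 0.834 to 1.10, with intervals that held 1. Socs1 was higher in the aged choroid plexus than in the aged meninges in all 3 classes, by 1.57 (1.26 to 1.94) in CD4, 1.47 (1.18 to 1.84) in CD8 and 1.57 (1.32 to 1.88) in neither cells.

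Socs3 was lower in the choroid plexus in all 6 comparisons, as were 8.34% of genes, by -0.27 to -1.05 on the log2 scale. The fold was 0.312 (0.107 to 0.757) in young CD8 cells and 0.572 (0.367 to 0.896) in aged CD8 cells. The immediate early and stress list moved the same way, at 2133 and 258 CPM in young CD8 cells of the meninges and choroid plexus and 2416 and 361 CPM in aged ones, and its part in the Socs3 difference was not tested. Stat4 was lower in the choroid plexus in CD4 cells of both ages, at 0.651 times (0.417 to 0.992) and 0.692 times (0.515 to 0.922) the meningeal level. Jak3 in CD8 cells was 0.427 times (0.19 to 0.871) the meningeal level in the young and 2.02 times (1.15 to 3.75) in the aged choroid plexus.

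Within a library, CD8 cells had less Socs2 than CD4 cells in 3 of the 4. The log2 ratio of CD8 over CD4 was -1.15 in the young meninges, -1.18 in the aged meninges and -1.04 in the aged choroid plexus, and 0.03 in the young choroid plexus on 8 and 6 UMIs. Socs2 passed the cut in those 3 libraries and Cish in the young meninges. In the young choroid plexus no member passed, but only 6 members had enough UMIs to be tested there. Socs3 was not among them. Its log2 ratio in that library was -1.05, on 6 UMIs in CD8 and 15 in CD4 cells, under the minimum of 20. Of all genes 2.81% passed in the young meninges, 4.51% in the aged meninges, 3.35% in the aged choroid plexus and 3.54% in the young choroid plexus. Socs3, Stat3, Stat5a and Stat5b were lower in CD8 than in CD4 cells in all 4 libraries, as were 24.7% of genes. The interval of the fold left out 1 in 3 libraries for Socs3, 1 for Stat3 and 0 for Stat5a and Stat5b. The median log2 ratio of all genes was also below 0, at -0.06 to -0.16. The Socs3 level of CD8 cells was 0.639, 0.313, 0.628 and 0.446 times that of CD4 cells in the meninges and choroid plexus of young mice and then of aged mice. The immediate early and stress list was also lower in CD8 than in CD4 cells in each of these libraries, at 2133 and 3587, 258 and 457, 2416 and 4938, and 361 and 820 CPM, and its part was not tested. Cish was 0.402 times (0.261 to 0.609) the CD4 level in young meningeal CD8 cells and 1.93 times (1.08 to 3.62) in young choroid plexus CD8 cells.

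The cells were then split by Ccr7 and by Cxcr3, a chemokine receptor of effector and memory T cells. Cells with a UMI of Ccr7 but none of Cxcr3 (here Ccr7-positive) were set against those with the reverse (Cxcr3-positive), and in 10 of the 12 pools each side numbered at least 20 cells. Cish was lower in the Ccr7-positive cells in all 10 and Socs2 in all 10, as were 7.75% of the 5971 genes. The median log2 ratio of Ccr7-positive over Cxcr3-positive cells was -2.49 for Cish, -1.58 for Socs2, -1.27 for Socs1 and -0.22 for the median gene. In the young meninges Cish stood at 14.9 CPM in Ccr7-positive and 105 CPM in Cxcr3-positive CD4 cells, at 5.21 and 139 CPM in CD8 cells and at 6.97 and 141 CPM in neither cells. In the young choroid plexus it stood at 6.66 and 104 CPM in CD4, 18.4 and 187 CPM in CD8 and 7.40 and 131 CPM in neither cells. The interval of the fold left out 1 in all 6 young pools, which held 2 to 7 Cish UMIs on the Ccr7-positive side. In the aged libraries the gap was smaller, with 71.6 and 158 CPM in meningeal CD4 cells, 43.0 and 191 CPM in meningeal neither cells, 47.7 and 154 CPM in choroid plexus CD8 cells and 96.7 and 102 CPM in choroid plexus neither cells.

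Socs1 followed this split in 8 of the 10 pools. In young meningeal CD4 cells it was 29.7 CPM in Ccr7-positive and 179 CPM in Cxcr3-positive cells, and in young choroid plexus neither cells 37.0 and 287 CPM. The exceptions were young meningeal CD8 cells, at 69.4 and 33.1 CPM (5 UMIs in the Cxcr3-positive cells), and aged choroid plexus neither cells, at 325 and 189 CPM. Socs2 was 9.29 and 162 CPM in young meningeal neither cells and 4.93 and 172 CPM in young choroid plexus neither cells. Socs3 went the other way, higher in Ccr7-positive cells in 7 of 10 pools, with 135 CPM against 70.7 CPM in aged meningeal neither cells. Jak1 hardly differed, with log2 ratios of -0.23 to 0.46 and no interval that left out a fold of 1. The split was not particular to the inhibitors. Stat4 and Stat3, like Socs1, were higher in Ccr7-positive cells in 2 of 10 pools, with median log2 ratios of -0.67 and -0.39. Stat5a and Stat5b, like Socs3, were higher there in 7 of 10, with medians of 0.20 and 0.56, and Jak3 in 3. The interval of the fold left out 1 in 8 pools for Socs1, 3 for Socs3, 2 for Stat4 and 1 for Stat3. How many of all genes reached these counts was not counted.

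**Figure D4:**
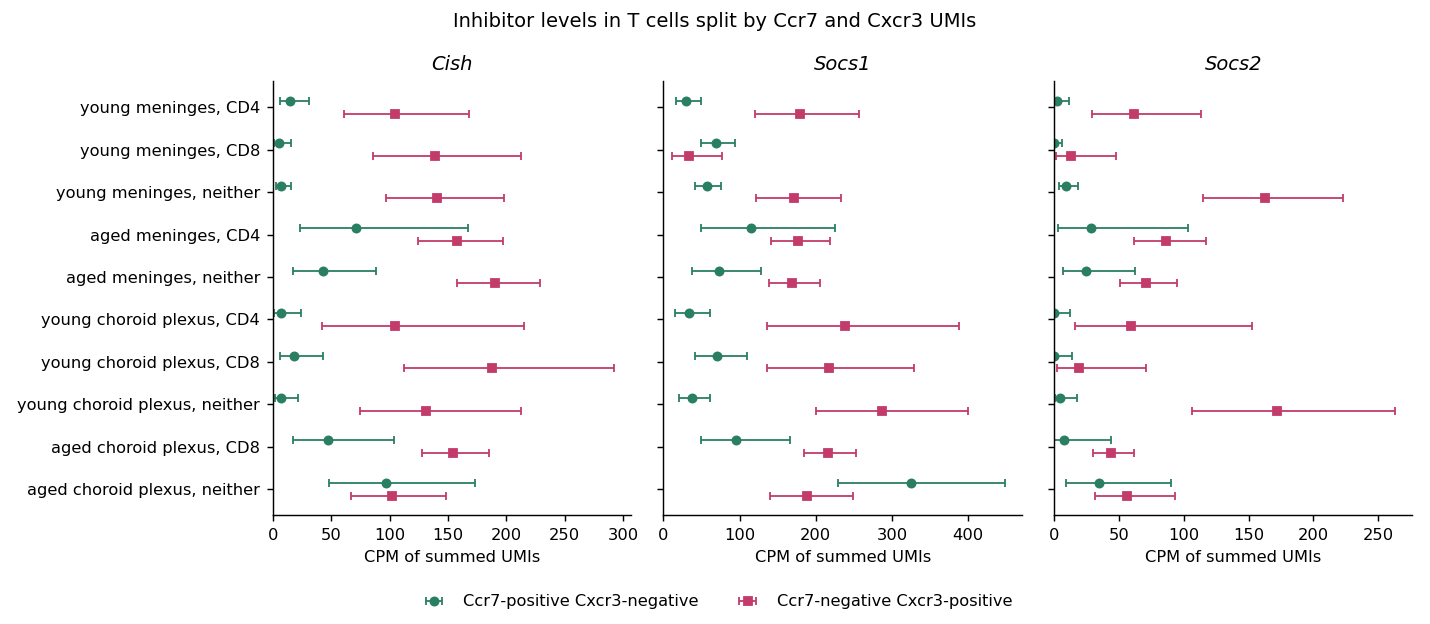
CPM of Cish, Socs1 and Socs2 (horizontal axes, each on its own scale) in cells with Ccr7 but no Cxcr3 UMI (circles) and cells with Cxcr3 but no Ccr7 UMI (squares) of the 10 pools with at least 20 cells on both sides, with exact Poisson 95% intervals of the counts. In the 6 young pools Cish is 5.21 to 18.4 CPM in the former and 104 to 187 CPM in the latter.

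Aged and young cells were also compared inside each gate. Among Cxcr3-positive cells the aged over young log2 ratio of Cish was 0.55 in meningeal CD4, 0.11 in meningeal CD8 and 0.41 in meningeal neither cells, and 0.86, -0.27 and -0.33 in the same classes of the choroid plexus. All 6 of these intervals of the fold held 1, with 20 to 68 young cells a pool. The Socs1 ratios were -0.02, 1.76 and -0.01 for meningeal cells (1.76 on 5 young UMIs in CD8 cells), then 0.19, -0.00 and -0.58 for choroid plexus cells. Socs2 was higher in the aged library in 4 of 6 comparisons (-1.45 to 0.86), and in neither cells it was lower, with 70.7 against 162 CPM in the meninges and 56.7 against 172 CPM in the choroid plexus, where both intervals of the fold left out 1. Socs3 was higher in 3 of 6 (-0.42 to 1.87), and all 6 intervals held 1. Stat4 was likewise higher in 3 of 6 (-0.41 to 0.80), and its 6 intervals held 1. Among Ccr7-positive Cxcr3-negative cells, Cish, Socs1, Socs2 and Socs3 were higher in the aged library in all 4 comparisons with at least 20 cells on both sides, as were 9.03% of genes. The interval of the fold left out 1 in 3, 2, 1 and 2 of the 4. Stat4 was higher in 2 of the 4 (-0.52 to 0.97), and each of its intervals held 1. Stat5b was lower in all 4, as were 10.8% of genes, and each of its intervals held 1. Cish stood there at 71.6 CPM in aged and 14.9 CPM in young meningeal CD4 cells, 43.0 and 6.97 CPM in meningeal neither cells, 47.7 and 18.4 CPM in choroid plexus CD8 cells and 96.7 and 7.40 CPM in choroid plexus neither cells. These aged pools held 25 to 57 cells and 5 to 11 Cish UMIs.

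Without the Cxcr3 gate, Ccr7-negative cells gave a Cish log2 ratio of -0.03 in meningeal CD4 cells, against 0.81 in all meningeal CD4 cells, and 0.39 to 1.24 in the other 5 comparisons. Socs2 turned to -0.29 in meningeal and -0.13 in choroid plexus neither cells, from 0.53 and 0.61. Socs1 stayed above 0 in all 6, at 0.16 to 1.17, and Socs3 at 0.14 to 1.34.

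Gates for single T cell states gave further values for Cish. Among all T cells, those with a UMI of Il4, Il5, Il13 or Il1rl1, genes of type 2 T cells, held 189 CPM of Cish against 45.6 CPM in the rest of the young meninges, a fold of 4.15 (2.65 to 6.28). In the aged meninges the values were 254 and 143 CPM, a fold of 1.77 (1.37 to 2.27), and in the aged choroid plexus 226 and 132 CPM, a fold of 1.71 (1.37 to 2.12). CD4 cells with a UMI of Foxp3, the factor of regulatory T cells, held 200.4 CPM against 141 CPM in the aged meninges and 255 against 153 CPM in the aged choroid plexus. The interval of the fold left out 1 in 1 of these 2 libraries. CD8 cells with a UMI of Gzmk, a granzyme of memory CD8 cells, held 125 against 14.8 CPM in the young meninges, a fold of 8.49 (4.09 to 18.3), and 132 against 50.7 CPM in the young choroid plexus. In the aged libraries the Gzmk gate made less difference, with 139 against 98.8 CPM in the meninges and 128 against 140.3 CPM in the choroid plexus. For the Gzmk gate the interval left out 1 in 2 of the 4 libraries. Cells with a gamma-delta constant gene held 175 against 136 CPM in the aged choroid plexus and 191 against 148 CPM in the aged meninges. This gate had enough cells in 3 libraries, and the interval left out 1 in 1 of them.

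The differences could also be read from the number of cells with a UMI, after each cell had been thinned to 1000 UMIs. For meningeal CD4 cells the share with Cish was 5.53% (3.06 to 9.11) when young and 16.3% (12.6 to 20.5) when aged, and for choroid plexus CD4 cells 2.52% (0.69 to 6.32) and 15.7% (11.3 to 21.1). Among CD8 cells the young and aged shares were 3.54% and 12.8% for meningeal and 7.01% and 12.7% for choroid plexus cells, and among neither cells 2.74% and 15.8%, then 2.62% and 11.6%. Socs1 was seen in 7.11% and 14.6% of meningeal and 5.66% and 22.3% of choroid plexus CD4 cells. In choroid plexus CD8 cells the Socs1 shares were 15.9% (10.6 to 22.6) and 14.6% (11.5 to 18.1), which does not follow the 126 and 184 CPM, so the higher aged CPM of Socs1 in that class was not read as an order. Socs3 was seen in 6.32% and 5.06% of meningeal CD4 cells, the reverse of its CPM, and the thinned sums gave log2 ratios of -0.16 in meningeal CD4 and -0.33 in meningeal CD8 cells. Jak1 was seen in 22.3% to 35.2% of cells in all 12 pools. Without thinning, the Cish shares of meningeal CD4 cells were 14.96% and 27.9%. All cells analysed were T cells, so the share that free RNA gives to a cell type lacking these genes could not be read.

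Of the genes around the members, receptor subunits went in both directions with age. The list of 20 subunits was tested with 15 to 17 genes a comparison. In order, 0, 2, 1, 3, 2 and 4 were higher and 2, 3, 4, 3, 2 and 3 lower past the cut, in meningeal CD4, CD8 and neither cells and then choroid plexus CD4, CD8 and neither cells, beside the background given above. Il6ra, the interleukin-6 receptor, was lower in the aged library past the cut in all 6, with 115 and 45.4 CPM in young and aged meningeal CD4 cells and 75.6 and 12.7 CPM in choroid plexus CD8 cells. Il6st, its signalling partner and the chain that Socs3 blocks, was lower in all 6 and past the cut in 4, with 46.4 and 13.3 CPM in meningeal CD8 cells. Ifngr2 and Ifngr1, both chains of the interferon-gamma receptor, went apart. Ifngr2 was 51.9 and 11.9 CPM, and Ifngr1 255 and 503 CPM, in young and aged meningeal CD4 cells, each in the same direction in all 6. Il4ra was lower in all 6 and past the cut in 3.

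Il2ra and Il2rb, chains of the interleukin-2 receptor, and Il15ra, a chain of the interleukin-15 receptor, each passed the cut in 2 of 6 comparisons. Il2ra was 16.9 and 41.5 CPM in young and aged meningeal CD4 cells and 10.1 and 38.8 CPM in choroid plexus CD4 cells, and Il2rb was 96.6 and 244 CPM in the latter. Il15ra was 1.58 and 24.8 CPM in choroid plexus CD8 cells. All 3 had the higher value in the aged library in 6 of 6 comparisons, as did Il10ra, which passed the cut in 4. Il2rg, the common gamma chain, ranged from -0.03 to 0.37 on the log2 scale, and Il7r from -0.46 to 0.16.

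Among the other JAKs and STATs (5 genes), Jak2 was the one past the cut, with 38.4 and 93.8 CPM in meningeal CD4 and 36.5 and 86.0 CPM in meningeal neither cells. Of the other SOCS genes, Socs4 alone had enough UMIs to be tested, in 5 of the 6 comparisons, and it passed in choroid plexus neither cells, with 9.92 and 31.1 CPM. Of 10 PIAS and phosphatase genes, Ptpn11 passed in choroid plexus CD4 and neither cells. The list of 16 STAT targets had 0, 0, 2, 6, 3 and 5 genes higher past the cut in the same order of comparisons and 1 lower, Pim2 in meningeal CD8 cells. Of all genes tested, 4.23%, 3.2%, 3.44%, 7.27%, 2.46% and 4.62% were higher past the cut in that order, and 1.83% lower in meningeal CD8 cells. Batf, a factor of effector T cells, was 40.3 and 143 CPM in choroid plexus CD4 cells, and Bcl3 was 8.05 and 48.5 CPM there. Il18r1, Gfi1, Bcl2l1 and Lta were the other targets past the cut, all higher in the aged library. Pim1, another STAT5 target, ranged from -0.12 to 0.25.

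**Figure D5:**
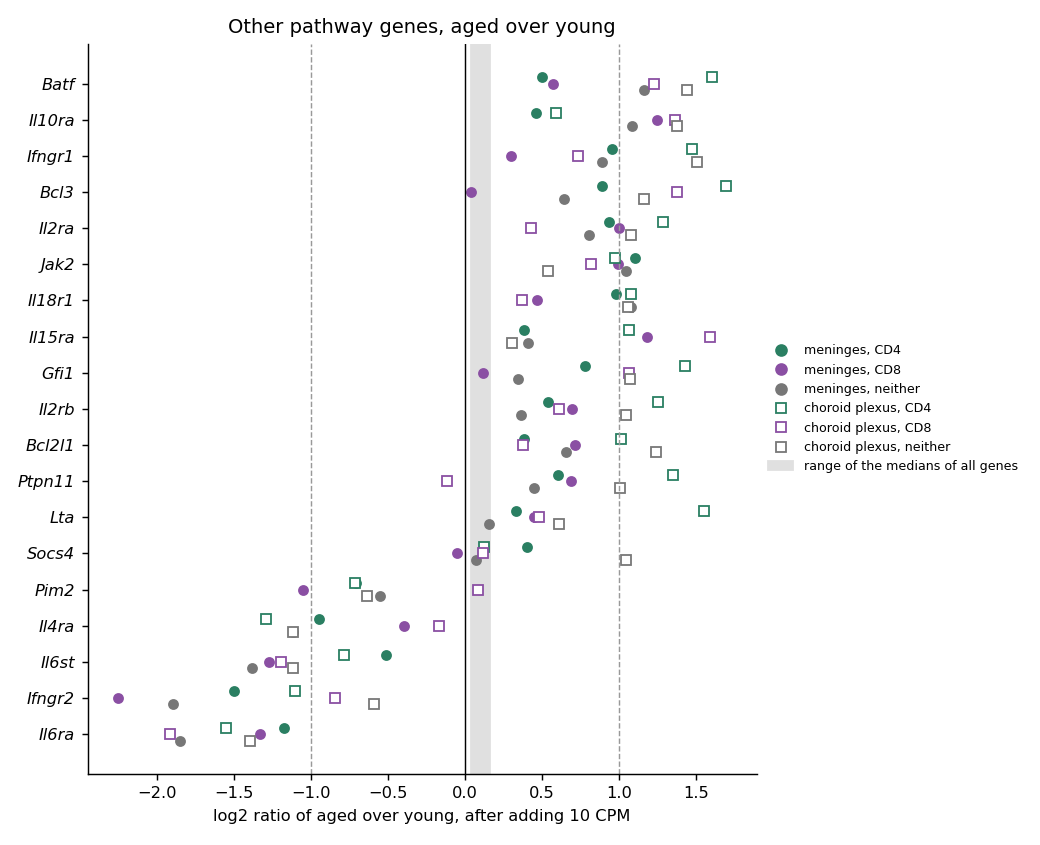
Log2 ratios of aged over young (horizontal axis, after adding 10 CPM) of the 19 other pathway genes past the cut in at least 1 comparison, in CD4, CD8 and neither T cells of the meninges (filled circles) and choroid plexus (open squares), with dashed lines at the cut of 1 and the medians of all genes in grey. Il6ra lies below -1 in all 6 comparisons and Batf above 0 in all 6.

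Over the 12 pools, 8 members varied at least 2-fold and were matched with 4544 genes of at least 300 UMIs, by Pearson's r of the log2 of CPM plus 10, leaving out receptor, immunoglobulin, mitochondrial and ribosomal protein genes. The pools share libraries, so r is a description. Closest to Cish were Gng10 (0.97), Pla2g16 (0.96) and Plscr1 (0.96), and closest to Socs1 were Sem1 (0.97), Ndufb7 (0.96) and Ubl5 (0.96). Socs2 was closest to Il2ra (0.94), Tmed10 (0.94) and Foxp3 (0.93), and Socs3 to Grap (0.96), Arf4 (0.96) and Ctla4 (0.94). Stat4 was closest to Ptprcap (0.94), Srsf3 (0.94) and 2010111I01Rik (0.93), and Stat5a to Psmd8 (0.89), Tufm (0.88) and Sae1 (0.83). Stat5b was closest to R3hdm4 (0.94), Tecpr1 (0.87) and Rsrp1 (0.87), and Jak3 to Ddx19a (0.87), Dcaf12 (0.87) and Fli1 (0.84). Among the members, Cish went with Socs1 (0.88) and Stat4 (0.84), Socs3 with Stat3 (0.83), and Jak1 ran against Socs2 (-0.84) and Socs1 (-0.79).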

How the data were processed

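Sorted T cells were pooled from 5 mice per group and sequenced as 4 droplet libraries. Whether both tissues of an age came from the same mice is not given in the sources used here. The authors deposited raw UMI counts per gene and cell barcode as filtered matrices, aligned to mm10. The matrix headers name Cell Ranger 3.1.0 and the submitters' processing notes Cell Ranger 5.1.0 and STAR, and the annotation is not given in the sources used here. Cells with 200 to 7000 genes and at most 5% mitochondrial UMIs were kept. Scrublet (in scanpy 1.11.5) removed doublets, but marked none in the aged meninges, where doublets can remain.

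Counts were summed per library and class and scaled to CPM with Python 3.11.15, numpy 2.4.6, pandas 2.3.3 and scipy 1.17.1. Intervals are exact Poisson for CPM, exact conditional binomial for folds and Clopper-Pearson for shares, at 95%. With 1 library per group no test across samples was made. The comparisons share libraries. The genes, lists and gates were chosen with earlier results of these data known. All 10 members are named, with up to 20 pathway genes past a log2 ratio of 1 between the ages in at least 1 comparison, taken by mean log2 ratio, and the 3 genes most like each member that varied at least 2-fold. Calls past a log2 ratio of 1 were checked on simulated Poisson counts. These hold no variation between mice or libraries, so the check covers counting error alone. Calls past 0.5 were not checked in this way. Alternatives changed the pseudocount, filters, scaling, depth, classes and gates. No other columns were used.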

Additional observations from a re-analysis of the deposited data

Results flagged for a closer look

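The genes Socs1, Cish and Jak3 went in opposite directions under the same contrast in 2 groups, each group being 1 library, and the differences were not tested. They were picked by a search over all the members and several pairs of groups. The rule asked for opposite signs and for intervals of the fold that left out 1 in both groups. How many of all genes would meet this rule was not counted, so these genes have no background to be read against. The log2 ratio of CD8 over CD4 cells for Socs1 was 0.87 in the young and -0.44 in the aged choroid plexus, 1.31 apart. For Cish it was -1.10 in the young meninges and 0.78 in the young choroid plexus, a difference of -1.88. The log2 ratio of aged over young CD8 cells for Jak3 was -0.76 for meningeal and 0.83 for choroid plexus cells, a difference of -1.59. All 3 rest on the young choroid plexus CD8 cells, where choroid plexus epithelial genes stood at 177 CPM, in 2.50% of the cells. Ccr7 was detected in 47.5% of these CD8 cells and in 62.5% of the CD4 cells of that library. In the young meninges it was detected in 64.6% of CD8 and 57.5% of CD4 cells. The part of the epithelial genes and of the Ccr7 shares was not tested.

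Cells without a Cd3d, Cd3e or Cd3g UMI, which no comparison used, also held UMIs of the 10 genes. Their summed level was 584 CPM in the young meninges (12 cells), 1140 CPM in the young choroid plexus (4 cells), 357 CPM in the aged meninges (28 cells) and 1656 CPM in the aged choroid plexus (7 cells), on 13, 5, 28 and 13 UMIs. The limits that a count of 0 allows were 135, 684, 38.3 and 382 CPM, and T cells held 815, 752, 1039 and 1051 CPM.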

How the results depend on the processing

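No paired analysis was possible because each group was 1 library, and for the same reason no replicate could be left out. Between the ages, 10 of 60 values passed a log2 ratio of 1. The count was 17 (15 higher, 2 lower) with a pseudocount of 1 CPM, 5 with 50 CPM, 6 in Ccr7-negative cells and 4 in Ccr7-positive cells, and 7 to 13 under the other 11 alternatives. At a ratio of 0.5 in either direction it was 33, against 13 with 50 CPM, 21 after thinning, 18 in Ccr7-negative and 10 in Ccr7-positive cells.

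Between the tissues the count was 2, against 3 with a pseudocount of 1 CPM, 3 after thinning (2 higher, 1 lower), 0 with 50 CPM, 1 without cell filters, 1 with 2 UMIs for a class, 5 in Ccr7-negative cells, 1 in Ccr7-positive cells and 0 without cells holding B cell UMIs. Between CD8 and CD4 cells it was 4, against 7 with 1 CPM, 0 with 50 CPM, 2 with median of ratios scaling, 2 after thinning, 2 with 2 UMIs for a class, 1 in Ccr7-positive cells and 2 without cells holding B cell UMIs. The cause of these moves was not tested. The alternatives for the tissues and for CD8 over CD4, and those that leave out macrophage UMIs, B cell UMIs or shared barcodes, were chosen after seeing the data.

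Outside the Ccr7 gates, Cish, Socs2 and Stat4 were higher in the aged library in all 78 values each, Socs1 in 77 and Socs3 in 76. The exceptions came after thinning, with Socs1 at -0.19 in choroid plexus CD8 cells and Socs3 at -0.16 and -0.33 in meningeal CD4 and CD8 cells. These values recount the same 4 libraries and do not stand apart from each other. Dropping the minimum of UMIs cannot change a log2 ratio, and asking 2 UMIs for a class leaves neither cells unchanged. Those values repeat the main result. In Ccr7-positive cells Socs1 was -0.12 in meningeal CD8 cells and Stat4 was -0.19 in choroid plexus CD8 cells. Stat5a, Jak3 and the gated pools rest on few UMIs, so small differences were not detectable at this depth.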
